A study of Homo sapiens with 36 samples.

Results

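Avelumab was set against atezolizumab in parental A498 cells, an established human line of clear cell renal cell carcinoma, by RNA sequencing of 6 of the 36 libraries of the series. The members were the 3 avelumab and the 3 atezolizumab libraries of A498 cells that had not been selected for resistance to the kinase inhibitor sunitinib. The 3 durvalumab libraries of the same cells entered the model only to add to its estimate of the spread. All 9 libraries carry 1 batch label. The cells received their antibody for 24 h, at a concentration that the labels state as 10 mg/mL. Of 45478 genes in the count table, 18372 passed a filter on low counts and were tested. The series also holds 786-O, a second clear cell renal carcinoma line, and cells labelled as sunitinib-resistant of each line, under the same 3 antibodies. Each of the 36 libraries is labelled with 1 of the 3 antibodies and none as untreated. A gene that is lower under avelumab is thus equally a gene that is higher under atezolizumab. Whether replicate libraries came from separate cultures is not stated in the labels. The p-values therefore describe the spread between these libraries alone, and that spread may be technical.

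Avelumab, atezolizumab and durvalumab are antibodies against PD-L1, the ligand by which tumour cells engage the inhibitory receptor PD-1 on T cells. Avelumab is an IgG1 with a native Fc part, whereas the Fc part of atezolizumab was engineered to bind Fc receptors poorly. Interferons signal through receptors and kinases to transcription factors that bind short GAAA-rich elements before genes of antiviral defence and antigen presentation. ATF4 is a transcription factor made when amino acids are short or proteins misfold, and it switches on amino acid transporters and enzymes of amino acid synthesis.

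The promoters of the interferon response genes with the lowest p-values show the sequence that members of this group have in common. The windows below come from RefSeq (GRCh38.p14), lie wholly before the tabled start site and read 5′ to 3′ on the strand of the gene. Capitals mark matches to a pair of GAAA separated by 2 bases of any kind, or to the reverse complement.
IFI27, chr14:94110603-94110675, plus strand: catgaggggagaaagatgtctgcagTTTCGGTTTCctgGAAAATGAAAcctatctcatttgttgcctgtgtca
GBP1, chr1:89065301-89065360, minus strand: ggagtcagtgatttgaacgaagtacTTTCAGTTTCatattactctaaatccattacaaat
IFI44, chr1:78649746-78649788, plus strand: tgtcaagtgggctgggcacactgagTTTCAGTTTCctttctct
LAP3, chr4:17576990-17577049, plus strand: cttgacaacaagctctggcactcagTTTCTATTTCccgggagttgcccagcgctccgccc
IFI6, chr1:27672251-27672310, minus strand: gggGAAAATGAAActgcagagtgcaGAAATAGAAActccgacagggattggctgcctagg
For ATF4 the element searched was TGATGNAA on both strands, and BCAT1, an ATF4 target that transaminates branched-chain amino acids, holds it before its start.
BCAT1, chr12:24949117-24949174, minus strand: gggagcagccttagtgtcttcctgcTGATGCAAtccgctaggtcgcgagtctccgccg

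Windows of 300 bases, 250 before and 50 after the start, were found for 16 of the 23 interferon response genes that were lower under avelumab, and 12 of them (75%) held the GAAA pair. Among the 41 members with a window that did not pass the test, 26 (63.4%) held it, against 3.94% of the 11959 tested genes with a window and 4.38% of all 27305 genes tabled. TGATGNAA was in 2 of the 14 ATF4 targets with a window that were higher under avelumab (14.3%), in 8 of 20 that did not pass (40.0%) and in 2.95% of tested genes. The differences between these shares were not tested. A match describes the letters in the window and is not evidence of binding.

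In the 6 libraries, totals ran from 26160910 to 40619959 counts, and the log2 CPM profiles of all 9 libraries correlated pairwise at 0.9928 to 0.9962 across genes, which are not independent replicates. CPM is the usual scaling of a count by its library's total. Renal markers were present: 15 of 23 averaged at least 1 CPM, and their summed level was 6720 to 7050 CPM under atezolizumab and 7030 to 7070 under avelumab. Among the 20 leukocyte markers, 7 had no count in any of the 6 libraries, and the sum was 3.87 to 4.26 CPM under atezolizumab and 3.84 to 4.59 under avelumab. The 10 endothelial markers summed to 2.25 to 2.6 and 2.37 to 3.22 CPM. The 11 fibroblast markers summed to 61.9 to 64.3 and 65.6 to 72.8 CPM, with 3 of them tested and none called. The libraries labelled A498 resistant, which enter only the comparison of cell states, went against their label. Their mean log2 CPM profile correlated at 0.99 with that of 786-O resistant and at 0.961 with that of 786-O parental libraries, but at 0.884 with that of A498 parental libraries (20752 genes, which are not independent replicates). The 8 Fc gamma receptor genes, whose products bind the Fc part of IgG, summed to at most 0.598 CPM in any of the 6 libraries, and none reached the filter.

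CD274, the gene of PD-L1 itself (chromosome 9), was at 8.41, 7.95 and 8.92 CPM under atezolizumab and at 8.12, 9.03 and 7.72 under avelumab. The groups overlapped, and the log2 change was -0.03 ± 0.0835 (SE, edgeR adjusted p = 0.914).

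Across all genes the differences were many and small. A gene was called when its adjusted p from edgeR's quasi-likelihood test was under 0.05, and 623 of 18372 genes (3.39%) were called, 315 higher (1.71%) and 308 lower (1.68%) under avelumab. Of the called genes 457 differed by less than 1.25-fold, 109 by 1.25-fold to 1.5-fold, 57 by at least 1.5-fold and 18 of these by at least 2-fold. The median size of a called change was 0.22 on the log2 scale for higher genes and 0.21 for lower genes, and the median change of all genes was -0.002. The 3 avelumab and 3 atezolizumab values did not overlap for 612 of the 623 called genes, against 20.4% of all genes tested. The count of calls fell to 141 without avelumab replicate 2, to 259 without atezolizumab replicate 3 and to 316 without atezolizumab replicate 1. None of the 623 genes changed direction in the alternatives for scaling, tool, filter, libraries, mitochondrial counts or replicate block.

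**Figure D1:**
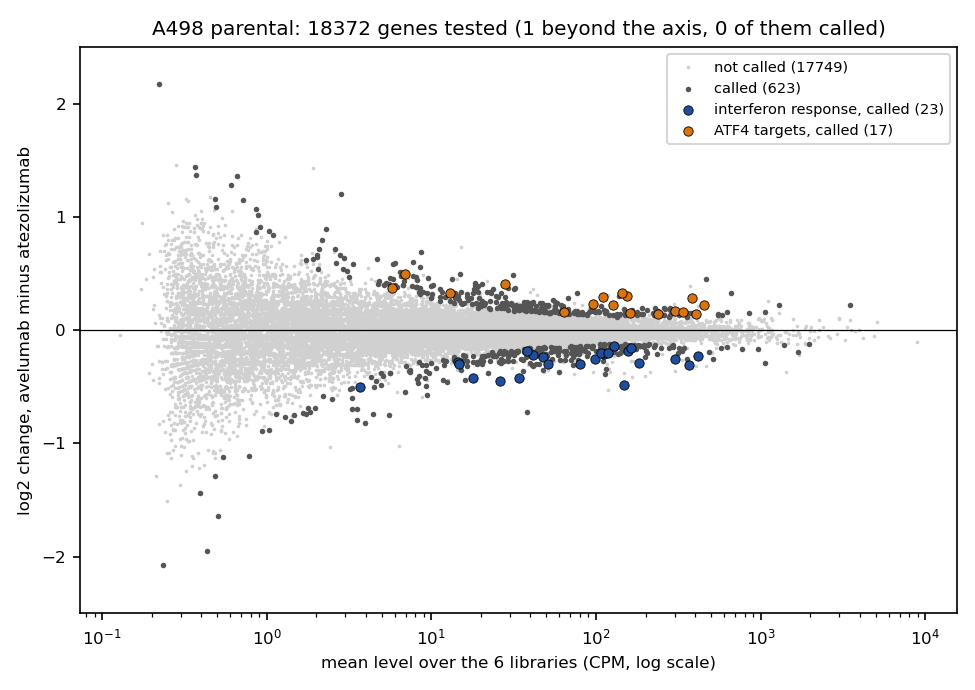
Log2 change of each of 18372 tested genes, avelumab minus atezolizumab, against its mean level over the 6 libraries in CPM on a log axis. Dark points are the 623 called genes. Blue marks the 23 called interferon response genes and orange the 17 called members of the ATF4 target list, ATF4 included. All blue points lie below the zero line and all orange points above it, most of them within 0.5 of it.

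Interferon response genes were lower under avelumab. Of 74 listed genes, all of which were tested, 23 were called lower and 0 higher, against 1.68% of all genes called lower. The list's median log2 change was -0.20, 72 of 74 members had a negative sign against 50.9% of all genes, and 44 had no overlap with avelumab lower against 8.87%. The summed level of the list was 10500, 9080 and 9850 CPM under atezolizumab and 8530, 8580 and 8720 under avelumab. Each avelumab library thus lay below each atezolizumab library, and atezolizumab replicate 2 stood nearest to avelumab.

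Among the effectors, IFI27, an interferon-induced mitochondrial and nuclear-envelope protein (chromosome 14, 94104836 to 94116698 on GRCh38), was at 211, 185 and 200 CPM under atezolizumab and at 163, 165 and 163 under avelumab (log2 change -0.29 ± 0.038, adjusted p = 4.46e-05). GBP1, a GTPase that attacks the vacuoles of intracellular pathogens, was at 89.4, 89.9 and 84.1 against 73.1, 70.6 and 71.4 CPM (-0.30 ± 0.0416, adjusted p = 7.74e-05). All avelumab values of these 2 genes were below all atezolizumab values. IFI44 (-0.25) and LAP3 (-0.21), an aminopeptidase that trims peptides, were lower with adjusted p of 0.000648 and 0.00203.

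USP18, the protease that removes ISG15 from proteins and damps interferon receptor signalling, was at 33.7, 27.3 and 29.7 CPM under atezolizumab and at 22.6, 22.5 and 21.6 under avelumab. The difference was 1.36-fold (log2 change -0.45 ± 0.0771, adjusted p = 0.00466). IFI6, a mitochondrial protein that opposes apoptosis, was at 193, 156 and 172 against 124, 128 and 122 CPM (-0.48 ± 0.0812, adjusted p = 0.0245). The IFI6 call ended without any 1 of atezolizumab replicate 3 (adjusted p = 0.0779), avelumab replicate 1 (0.0598), avelumab replicate 2 (0.0918) or avelumab replicate 3 (0.0838). Of the receptors, kinases and sensors upstream, 1 of 15 tested genes was called, against 3.39% of all genes, and the list's median was -0.02. It was IFNGR2, a chain of the interferon gamma receptor, lower by 1.11-fold (adjusted p = 0.0312), a gene that shares 12.8% of its exonic length with TMEM50B. That call ended without atezolizumab replicate 1 (0.105) or 3 (0.105) and without avelumab replicate 1 (0.108) or 3 (0.109). JAK2 had a log2 change of 0.15 (adjusted p = 0.356) and TYK2 of 0.07 (adjusted p = 0.43).

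The interferon count depended on the libraries: it was 11 without avelumab replicate 2, 15 without atezolizumab replicate 3 and 39 without atezolizumab replicate 2. Over all genes these fits called 141 of 18640, 259 of 18647 and 564 of 18843. Over the 9 fits that each left out 1 library the median of the list lay between -0.16 and -0.26. With the mitochondrial share of each library as a covariate 4 members were called and the median was -0.17. That fit called 49 of all 18372 genes.

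CCL5 and CCL2, chemokines that attract leukocytes, were among the 6 lower genes with the lowest p. CCL5, which draws T cells and monocytes (chromosome 17, 35871491 to 35880793), was at 39.8, 37.5 and 39.6 CPM under atezolizumab and at 31.7, 27 and 29.2 under avelumab. It was 1.34-fold lower (log2 change -0.42 ± 0.054, adjusted p = 3.94e-05). CCL2, the monocyte attractant (chromosome 17, 34255218 to 34257203), was at 68, 69 and 63.4 against 50.1, 51 and 55.3 CPM (-0.37 ± 0.0478, adjusted p = 4.46e-05). No avelumab library reached an atezolizumab library for either chemokine. CXCL10 and CXCL11, chemokines of the interferon list named here after their values were seen, did not pass, with log2 changes of -0.14 (adjusted p = 0.652) and -0.12 (adjusted p = 0.768). In the list of 29 tested NF-kappaB targets, 3 were called lower (CCL2, TRAF1 and NFKBIA) and 2 higher (CSF1 and CSF2), with a median of -0.01. Among all genes 1.68% were called lower and 1.71% higher. CSF2, the growth factor GM-CSF, was at 9.6, 9.98 and 10 against 11.9, 14.5 and 11.8 CPM (0.36 ± 0.0804, adjusted p = 0.00856), a call that ended without avelumab replicate 2 (adjusted p = 0.157). The calls of TRAF1, NFKBIA and CSF1 ended without avelumab replicate 2 as well (0.1, 0.118 and 0.136). TRAF1 and NFKBIA also lost theirs without atezolizumab replicate 1 (0.0651 and 0.079), CSF1 without atezolizumab replicate 3 (0.108), and NFKBIA without atezolizumab replicate 2 (0.101) or avelumab replicate 3 (0.0648).

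Of 21 tested genes of class I antigen presentation 7 were called lower, 0 higher and 14 did not pass, against 1.68% of all genes called lower, and the median was -0.10. With the mitochondrial share as a covariate edgeR called 0 of the 21, and 49 of all 18372 genes. PSMB9, a peptidase subunit of the immunoproteasome, was at 61.7, 62.5 and 64.2 CPM under atezolizumab and at 54.5, 53.8 and 54.5 under avelumab (log2 change -0.22 ± 0.0392, adjusted p = 0.00159). TAP1, a chain of the peptide transporter, had a log2 change of -0.18, and HLA-B, HLA-C and HLA-F, heavy chains that display peptides, of -0.17, -0.17 and -0.25. HLA genes are close copies of each other, and their values and the split between them are uncertain. The calls of TAP1 and of these HLA genes ended without avelumab replicate 2, where the adjusted p ran from 0.0525 for TAP1 to 0.0834 for HLA-B. In that fit 1 of 21 members was called, and 141 of all 18640 genes. The HLA-B call also ended without atezolizumab replicate 3 (0.0568). In class II, 1 of 8 tested genes was called lower and all 8 had a negative sign, against 1.68% and 50.9% of all genes. It was HLA-DRA, an alpha chain at 1.72, 1.54 and 2.29 against 1.21, 1.22 and 0.841 CPM (-0.75 ± 0.205, adjusted p = 0.0349). That call ended without atezolizumab replicate 1 (0.0609) or 3 (0.253) and without avelumab replicate 2 (0.0892) or 3 (0.122).

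Among 21 tested ligands of immune checkpoints, 2 were called lower and 1 higher, against 1.68% and 1.71% of all genes. LGALS9, the gene of galectin-9, a lectin that binds the T cell receptor TIM-3 (chromosome 17, 27629798 to 27649560), was at 7.6, 5.68 and 7.57 CPM under atezolizumab and at 4.48, 3.9 and 4.05 under avelumab. This was the lowest log2 change among the named genes that had at least 5 CPM and no overlap (-0.75 ± 0.119, adjusted p = 0.000463, 1.68-fold). CEACAM1, an adhesion molecule, was at 2.74, 1.84 and 2.67 against 1.65, 1.17 and 1.72 CPM (-0.69, adjusted p = 0.026), and NT5E, which makes adenosine, was 1.19-fold higher (adjusted p = 0.043). The CEACAM1 call ended without atezolizumab replicate 1 (0.12) or 3 (0.137) or avelumab replicate 2 (0.203). That of NT5E ended in 6 of the 9 fits without 1 library, with adjusted p up to 0.239 without avelumab replicate 2. Complement genes C1R (-0.26, adjusted p = 0.000534) and C1S (-0.18, adjusted p = 0.00346), the proteases of the C1 complex, were lower, and C1R shares 11.4% of its exonic length with C1RL. The complement list had 3 of 15 tested members called lower and 1 higher, against 1.68% and 1.71% of all genes.

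**Figure D2:**
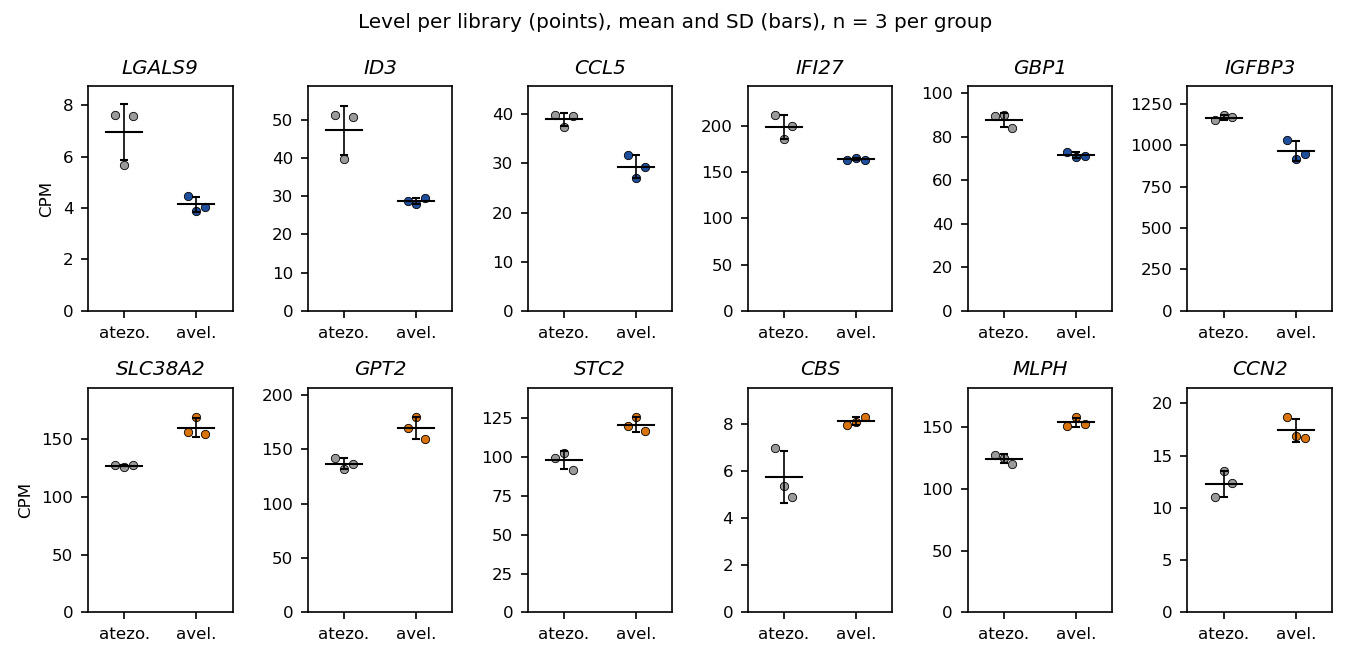
Level in CPM of 12 named genes in each atezolizumab and avelumab library (points), with the mean and SD of 3 libraries per group (bars); each axis starts at 0. The 6 genes of the upper row were lower and the 6 of the lower row higher under avelumab, and no group pair overlapped.

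ATF4 targets were higher under avelumab. Of 45 listed genes, ATF4 itself among them, 43 were tested. Of these, 17 were called higher and 0 lower, against 1.71% of all genes called higher. The median was 0.14, 38 of 43 had a positive sign against 49.1% of all genes, and 27 had no overlap with avelumab higher against 11.6%. The list summed to 8530, 8400 and 8090 CPM under atezolizumab and to 9010, 9210 and 8760 under avelumab, so every avelumab library lay above every atezolizumab library. The count of 17 fell to 7 without atezolizumab replicate 3, 9 without avelumab replicate 2, 10 without atezolizumab replicate 2 and 11 without atezolizumab replicate 1 or avelumab replicate 1. It was 8 with the mitochondrial share as a covariate, with a median of 0.19. Over all genes, the fits without those libraries called 259, 141, 564, 316 and 759 in that order. The fit with the covariate called 49 of 18372.

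The transporter SLC38A2, which imports neutral amino acids (chromosome 12, 46358189 to 46372867), was at 127, 126 and 127 CPM under atezolizumab and at 156, 169 and 154 under avelumab. It was 1.26-fold higher (log2 change 0.33 ± 0.0373, adjusted p = 6.23e-06). GPT2, the mitochondrial alanine transaminase, was at 142, 132 and 137 against 170, 180 and 160 CPM (0.30 ± 0.0402, adjusted p = 5.83e-05). BCAT1, the transaminase whose promoter is shown above, was at 92.1, 88.2 and 85 against 101, 106 and 104 CPM (0.23 ± 0.0436, adjusted p = 0.00379). The 3 genes had no overlap between the groups. CBS, which condenses serine with homocysteine, was at 6.97, 5.34 and 4.9 against 7.93, 8.09 and 8.29 CPM (0.50 ± 0.101, adjusted p = 0.00466), and its call ended without atezolizumab replicate 3 (adjusted p = 0.0608).

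STC2 and GDF15, secreted proteins of the list, were called. STC2, a glycoprotein hormone, was at 99.8, 103 and 91.9 CPM under atezolizumab and at 120, 126 and 117 under avelumab (log2 change 0.29 ± 0.0407, adjusted p = 7.74e-05). GDF15, a stress hormone that lowers appetite, was at 440, 403 and 410 against 479, 512 and 474 CPM (0.22 ± 0.0408, adjusted p = 0.00345). INHBE, a secreted inhibin chain of the list named here after its value was seen, had a log2 change of 0.46 and did not pass (adjusted p = 0.208). ATF4 itself, a called member of the list named here after its values were seen, had a log2 change of 0.14 (adjusted p = 0.0174). DDIT3 (0.07), ATF3 (-0.06) and CEBPB (-0.07), stress transcription factors of the list, also named after their values were seen, did not pass.

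In 3 related stress lists no member was called by edgeR with the mitochondrial share as a covariate. That fit called only 49 of all 18372 genes. Of 20 tRNA synthetases, which load amino acids onto tRNA, 4 were called higher, against 1.71% of all genes (MARS1, GARS1, TARS1 and SARS1, log2 changes 0.13 to 0.19), with a median of 0.04. All 4 calls ended without avelumab replicate 2 (adjusted p from 0.08 for MARS1 to 0.342 for SARS1) and without atezolizumab replicate 3 (from 0.0502 to 0.192 for the same genes). GARS1 and TARS1 also lost theirs without atezolizumab replicate 1 (0.0551 and 0.139), and SARS1 in 8 of the 9 fits without 1 library. Of 20 unfolded protein response genes 1 was called higher, against 1.71% of all genes, and the median was 0. It was HERPUD1, a membrane protein of ER-associated degradation (0.17, adjusted p = 0.0138). That call ended without atezolizumab replicate 3 (0.123) or avelumab replicate 2 (0.164). Of 20 heat shock genes 4 were called lower and 0 higher, against 1.68% of all genes called lower, with a median of -0.06. HSPE1, the mitochondrial co-chaperonin, was at 82.2, 74.2 and 79.7 CPM under atezolizumab and at 69.4, 67.4 and 64.2 under avelumab (-0.24 ± 0.0462, adjusted p = 0.00383), and it shares 23.9% of its exonic length with HSPD1. The other 3, HSPB1, HSPA1A and HSPA1B, had log2 changes of -0.19, -0.16 and -0.29, and the latter pair are near copies whose counts cannot be separated with certainty. These 3 calls ended without avelumab replicate 2 (0.0936, 0.171 and 0.0699), and those of HSPB1 and HSPA1A also without atezolizumab replicate 1 (0.0577 and 0.158). That of HSPB1 ended without atezolizumab replicate 2 (0.0694) too, and that of HSPA1A without atezolizumab replicate 3 (0.0745) or avelumab replicate 3 (0.115).

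Of 24 tested genes of cholesterol synthesis 23 had a positive sign, against 49.1% of all genes, with a median of 0.09. In this list 2 were called higher, against 1.71% of all genes. These were FDFT1, the squalene synthase (0.18, adjusted p = 0.0051), and DHCR7, which completes the pathway (0.16, adjusted p = 0.0235). Both calls ended without avelumab replicate 2 (0.0564 and 0.233). Without atezolizumab replicate 1 the FDFT1 call ended (0.0508), and that of DHCR7 ended without atezolizumab replicate 2 (0.0717) or 3 (0.0941) or avelumab replicate 1 (0.0508). None of 14 genes of fatty acid synthesis and none of 21 of the citric acid cycle were called by edgeR, against 3.39% of all genes. In glycolysis 1 of 22 was called, PFKL, a phosphofructokinase (-0.17, adjusted p = 0.00604). The PFKL call ended without avelumab replicate 2 (0.0593).

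Of 44 replication-dependent histone genes found, 16 were tested, of which 5 were called higher, 0 lower and 11 did not pass, against 1.71% of all genes called higher. The count was 1 without avelumab replicate 2, 2 without atezolizumab replicate 1, 3 without atezolizumab replicate 3 and 2 with the mitochondrial share as a covariate. Over all genes these fits called 141, 316, 259 and 49 in that order. H2BC12 was at 27.4, 29.3 and 27.1 CPM under atezolizumab and at 37.8, 35.5 and 35.5 under avelumab (log2 change 0.37 ± 0.0525, adjusted p = 9.43e-05). The libraries were made from polyadenylated RNA, which captures these transcripts poorly, and the genes are close copies, so their values are uncertain. The 58 cell cycle genes had 2 called lower, against 1.68% of all genes, 0 higher and a median of -0.05, as measured in the same libraries. Both cell cycle calls ended without avelumab replicate 2. Of 25 splicing factors 4 were called higher and 1 lower, against 1.71% and 1.68% of all genes. None of the 25 was called by edgeR without atezolizumab replicate 3 or with the mitochondrial share as a covariate. Over all genes these fits called 259 of 18647 and 49 of 18372. RBM39, a splicing factor, had a log2 change of 0.17 (adjusted p = 0.00491, and 0.0566 without atezolizumab replicate 3). The lower gene was SRSF2 (-0.12), which lost its call in each of the 9 fits without 1 library.

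**Figure D3:**
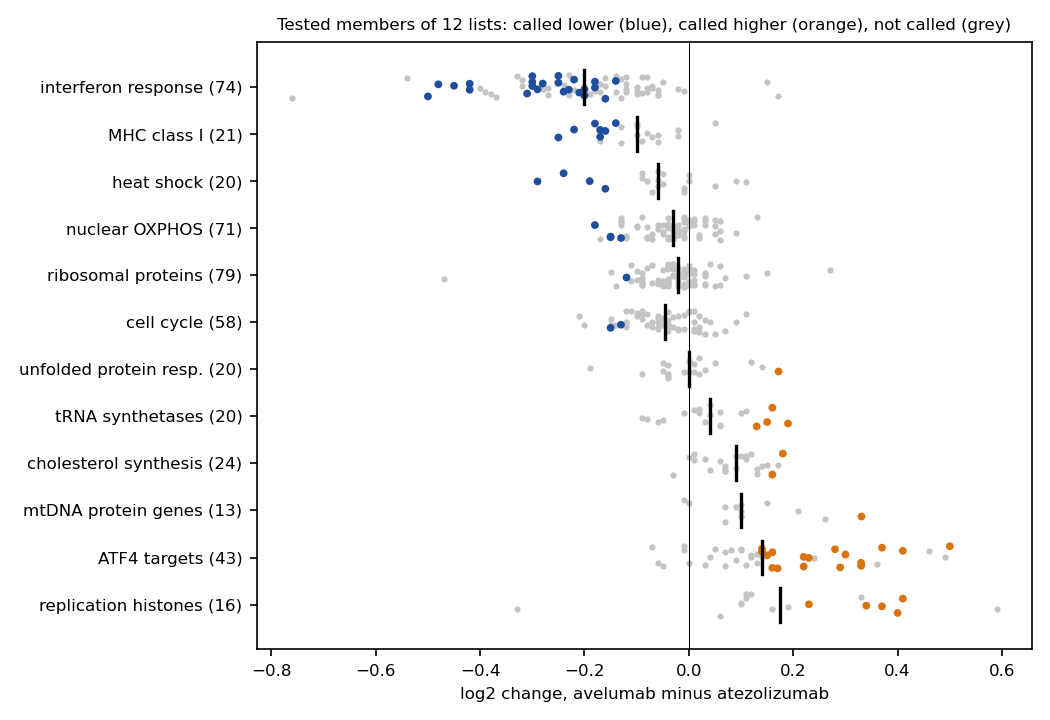
Log2 change, avelumab minus atezolizumab, of each tested member of 12 gene lists, with the number tested in brackets and the list's median as a black bar; blue points were called lower, orange higher and grey not called. The interferon response median sits at -0.20 and that of ATF4 targets at 0.14, while ribosomal proteins and nuclear OXPHOS genes lie within 0.03 of 0.

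Mitochondrially encoded RNA took a larger share of counts under avelumab. The share was 2.51%, 2.46% and 2.63% under atezolizumab, 2.66%, 2.80% and 2.83% under avelumab and 2.97%, 2.61% and 2.66% under durvalumab. The avelumab mean of 2.76% ± 0.0881 (SD, n = 3) was 0.231 percentage points above the atezolizumab mean of 2.53% ± 0.0893, with no overlap. The exact two-sided permutation test gave p = 0.1, the smallest that 3 libraries against 3 allow. Counting error was far smaller than the spread, as the exact 95% binomial interval for atezolizumab replicate 1 was 2.507% to 2.519%. In the other cell states the avelumab mean was below the atezolizumab mean. It was 1.74% ± 0.131 (SD) against 1.90% ± 0.225 in 786-O parental and 2.03% ± 0.123 against 2.42% ± 0.263 in 786-O resistant cells. In the libraries labelled A498 resistant it was 1.71% ± 0.37 against 1.95% ± 0.13. The difference in share between states was not tested. By gene, edgeR's test of the difference between the parental lines did not pass for MT-RNR1 (adjusted p = 0.523) or MT-ND1 (adjusted p = 0.563).

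Both mitochondrial rRNA genes and 1 of the 13 protein genes were called higher, against 1.71% of all genes. MT-RNR1, the small-subunit rRNA (mitochondrial positions 648 to 1601), was at 395, 385 and 393 CPM under atezolizumab and at 506, 532 and 573 under avelumab. It had the lowest p of all named genes (log2 change 0.45 ± 0.0383, adjusted p = 2.03e-08, 1.36-fold), and it was called in every fit without 1 library and with the mitochondrial share as a covariate. MT-RNR2, the large-subunit rRNA, was at 3180, 3000 and 3520 against 3670, 3730 and 3960 CPM (0.22 ± 0.0537, adjusted p = 0.0452). MT-ND1, a complex I subunit encoded next to the rRNAs, was at 587, 559 and 604 against 709, 740 and 763 CPM (0.33 ± 0.067, adjusted p = 0.0334). Both calls ended without atezolizumab replicate 1 (adjusted p = 0.115 and 0.105), atezolizumab replicate 2 (0.0951 and 0.141), avelumab replicate 2 (0.0949 and 0.123) or avelumab replicate 3 (0.118 and 0.121). That of MT-ND1 also ended without atezolizumab replicate 3 (0.0644). Kits that select polyadenylated RNA capture mitochondrial rRNA only in part, so these levels are not those of the rRNA itself.

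The other 12 protein genes were not called. The cytochrome oxidase subunits MT-CO1, MT-CO2 and MT-CO3 had log2 changes of 0.07, 0.09 and 0.10, and the ATP synthase subunits MT-ATP6 and MT-ATP8 of 0.10 and 0.10. Among complex I subunits MT-ND2 had 0.10, MT-ND3 0.07, MT-ND4 0, MT-ND4L -0.01, MT-ND5 0.26 (adjusted p = 0.138) and MT-ND6 0.21 (adjusted p = 0.175), and MT-CYB of complex III had 0.15 (adjusted p = 0.0823). The median over the 13 protein genes was 0.10, and 12 had a positive sign before rounding, against 49.1% of all genes. Of 12 tested mitochondrial tRNA genes 6 were called higher, against 1.71% of all genes. Among them was MT-TQ at 5.98, 4.88 and 5.11 against 8, 7.49 and 7.22 CPM (0.51 ± 0.0973, adjusted p = 0.003).

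**Figure D4:**
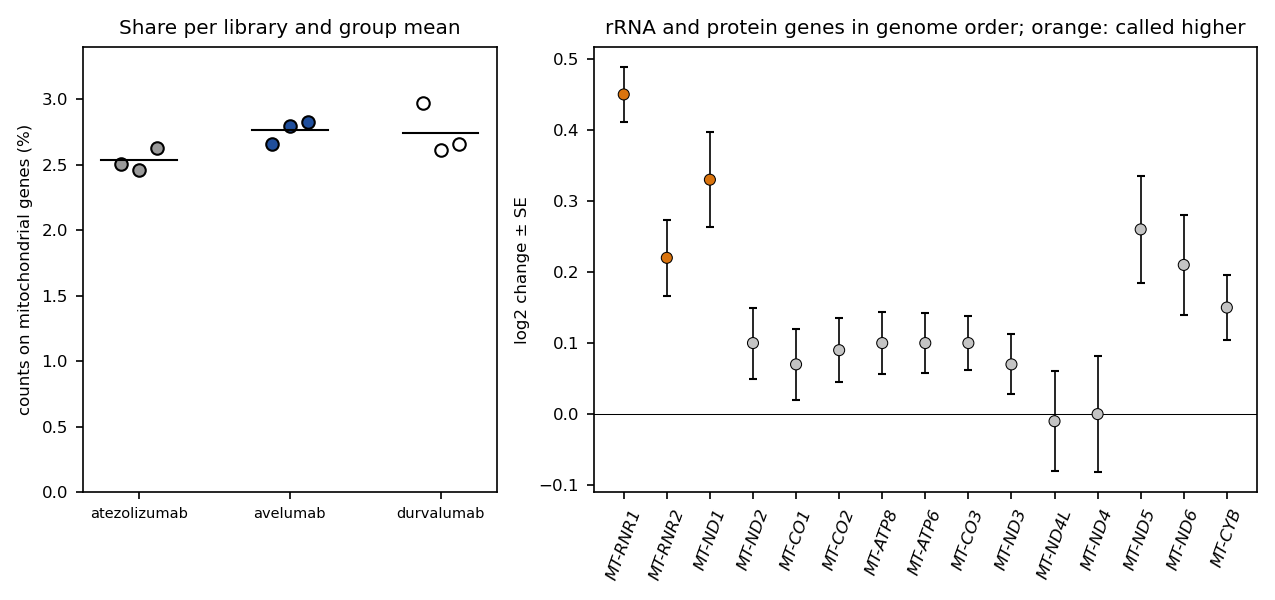
Left, percent of counts on mitochondrially encoded genes in each A498 parental library (points) with the group mean (bar), on an axis from 0; right, log2 change ± SE of the 2 rRNA and 13 protein genes in genome order, orange where called. The 3 avelumab libraries lie at 2.66% to 2.83% and the 3 atezolizumab libraries at 2.46% to 2.63%, and MT-RNR1 has the highest change of the 15 genes drawn, 0.45.

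Of 71 tested nuclear OXPHOS genes, which encode the other respiratory chain subunits, 4 were called lower and 0 higher, against 1.68% of all genes called lower (ATP5MC1, NDUFB7, ATP5F1C and ATP5MF, log2 changes -0.13 to -0.18), with a median of -0.03. ATP5MC1, NDUFB7 and ATP5F1C lost their call without avelumab replicate 2 (adjusted p = 0.0873, 0.111 and 0.0985), and all 4 lost it without atezolizumab replicate 3 (0.0568 to 0.152). NDUFB7, ATP5F1C and ATP5MF also lost it without atezolizumab replicate 1 (0.0503 to 0.105) and without avelumab replicate 3 (0.0751 to 0.161), and the latter 2 without atezolizumab replicate 2 (0.0569 and 0.0651). None of 20 genes of mitochondrial transcription and translation was called by edgeR, against 3.39% of all genes, with a median of 0.04. Ribosomal proteins had 1 of 79 called, against 3.39% of all genes. Their share of counts was 4.31% ± 0.103 under atezolizumab and 4.25% ± 0.15 under avelumab (exact permutation p = 0.6). The mitochondrial share moved with the antibody group, and 2 alternative fits addressed it. With mitochondrial genes removed before scaling 620 genes were called, and with the share of each library as a covariate 49 were, 27 higher and 22 lower. Of those 49, 47 were among the 623. The covariate and the antibody group do not overlap in these 6 libraries, so their parts cannot be told apart.

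ID3, an inhibitor of basic helix-loop-helix factors and a target of BMP signalling (chromosome 1, 23557918 to 23559794), was at 51.1, 39.8 and 50.7 CPM under atezolizumab and at 28.8, 28 and 29.6 under avelumab. It was 1.65-fold lower (log2 change -0.72 ± 0.11, adjusted p = 0.016), a call that ended without avelumab replicate 2 (adjusted p = 0.102) or 3 (0.0572). Its relative ID1 was at 48.9, 42.6 and 46.3 against 37.8, 36.1 and 37.2 CPM (-0.32 ± 0.0572, adjusted p = 0.003). Both inhibitors thus had lower values in every avelumab library. The TGF-beta and BMP list as a whole had 2 of 21 called lower and 2 higher, against 1.68% and 1.71% of all genes. CEBPD, a transcription factor of the acute-phase response, was at 9.32, 6.91 and 8.57 against 6.11, 5.24 and 5.62 CPM (-0.55 ± 0.105, adjusted p = 0.003).

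IGFBP3, which carries insulin-like growth factors in the blood (chromosome 7, 45912245 to 45921874), had the lowest p among lower genes. It was at 1150, 1180 and 1170 CPM under atezolizumab and at 1030, 919 and 946 under avelumab (log2 change -0.29 ± 0.0366, adjusted p = 3.37e-05, 1.22-fold). HPD, an enzyme of tyrosine breakdown, was at 5.84, 5.38 and 5.34 against 3.62, 3.08 and 3.17 CPM (-0.74 ± 0.12, adjusted p = 0.00048). ADAMTS9, a protease that cuts proteoglycans, was at 14.2, 13.3 and 15.6 against 10.2, 10.7 and 10.8 CPM (-0.46 ± 0.0722, adjusted p = 0.000304). These 3 genes kept their call in every fit without 1 library, as did C4orf48 (-0.57), which encodes a secreted peptide. C1QL4, a secreted C1q-like protein, had a log2 change of -0.50 (adjusted p = 0.0167), and its call ended without atezolizumab replicate 1 (0.0524) or 3 (0.173) or avelumab replicate 2 (0.119). MRPL12 (-0.44) overlaps a neighbour over 68.2% of its exons, so its change is uncertain.

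On the higher side, CCN2, a matricellular protein and YAP target (chromosome 6, 131948176 to 131951373), was at 11, 13.5 and 12.4 CPM under atezolizumab and at 18.7, 16.9 and 16.7 under avelumab (log2 change 0.50 ± 0.0744, adjusted p = 0.000239, 1.41-fold). COL13A1, a transmembrane collagen, was at 5.14, 5.08 and 4.08 against 6.03, 8.09 and 7.64 CPM (0.59 ± 0.115, adjusted p = 0.00345). MLPH, which links melanosomes to myosin, was at 127, 125 and 120 against 151, 158 and 152 CPM (0.30 ± 0.0354, adjusted p = 1.04e-05). The groups of these 3 genes did not overlap. BMF, a protein that promotes apoptosis (0.48), and MIR503HG, the host transcript of a microRNA cluster (0.60), kept their call without any 1 library.

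PLAT, the tissue plasminogen activator, was at 26.1, 26.4 and 25.2 CPM under atezolizumab and at 33, 41.8 and 35.3 under avelumab (log2 change 0.49 ± 0.0852, adjusted p = 0.00977), a call that ended without atezolizumab replicate 1 (0.0591) or 3 (0.0637). HERC2P2, a transcribed copy of HERC2, had the highest change under the naming rule, 0.69 ± 0.137 (adjusted p = 0.0176), and is uncertain as a near copy. Its call ended without atezolizumab replicate 2 (0.0763) or 3 (0.0919). UCN2, a peptide hormone, at 0.56 shares 19.5% of its exonic length with PFKFB4, and LINC02783 (19.1%), CDK5RAP3 (33.9%) and MZF1-AS1 (43.0%) overlap neighbours too, so these changes are uncertain. CDK5RAP3 also lost its call without atezolizumab replicate 2 (0.0631) or 3 (0.0876).

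Of 29 HIF targets 2 were called lower, IGFBP3 and CA12, and 1 higher, against 1.68% and 1.71% of all genes, with a median of -0.05. The higher gene was VEGFA, the endothelial growth factor (log2 change 0.13, adjusted p = 0.0317). The VEGFA call ended without atezolizumab replicate 1 (0.107) or 2 (0.129), avelumab replicate 1 (0.0585) or 2 (0.196) or durvalumab replicate 1 (0.0594), and that of CA12 without avelumab replicate 2 (0.0527) or 3 (0.0543). Among 19 tested receptor tyrosine kinases 2 were called lower, FGFR3 and DDR1, against 1.68% of all genes. Both calls ended without atezolizumab replicate 1 (0.0558 and 0.132), atezolizumab replicate 3 (0.0642 and 0.117) or avelumab replicate 2 (0.0721 and 0.188), and that of DDR1 also without avelumab replicate 3 (0.107), durvalumab replicate 1 (0.0668) or durvalumab replicate 3 (0.0543). Of 10 genes in the list of glucose-sensing MondoA targets 3 were called lower, and of 38 NRF2 targets 2, of 52 lysosomal genes 3, of 30 p53 targets 3 lower and 1 higher, and of 36 immediate early genes 2 lower and 1 higher, against 1.68% of all genes called lower and 1.71% higher. Without atezolizumab replicate 3 these counts were 0 for the MondoA list, 1 for NRF2 targets, 0 for lysosomal genes, 1 lower and 0 higher for p53 targets and 1 lower and 0 higher for immediate early genes. Without avelumab replicate 2 they were 1, 1, 0, 1 lower and 0 higher, and 0. Without atezolizumab replicate 1 the MondoA list and lysosomal genes had 1 each and p53 targets 1 lower and 0 higher. Over all genes the fits without these libraries called 259, 141 and 316 in that order. With the mitochondrial share as a covariate none of the 5 lists had a call by edgeR, in a fit that called 49 of all 18372 genes. CDH6, a kidney cadherin that overlaps DUX4L51 over 10% of its exonic length, was at 53.6, 52.4 and 57.5 against 47.2, 45.1 and 48.4 CPM (-0.23 ± 0.0442, adjusted p = 0.00329).

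The same antibodies were compared in the other cell states, which share no library with A498 parental cells. In 786-O parental cells 763 of 17577 genes (4.34%) were called, in 786-O resistant cells 228 of 18886 (1.21%), and in the libraries labelled A498 resistant edgeR called 0 of 17510 and DESeq2 called 0, with 619 at an unadjusted p under 0.05. Each state carries its own batch label, so state and batch cannot be told apart. The change itself differed between A498 parental and 786-O parental cells for 269 of 19703 genes (1.37%), of which 1 was among the 74 interferon response genes, IFITM3 (named after its value was seen), and 1 among the 43 ATF4 targets, STC2. Of 596 A498 parental calls tested in 786-O parental cells 385 (64.6%) had the same sign, against 54.6% of all genes tested in both, and 71 were called in both with the same sign and 10 with opposite signs. In 786-O resistant cells 47.1% had the same sign, against 49.2%, and in the libraries labelled A498 resistant 47.1%, against 51%.

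In 786-O parental cells 14 of 73 interferon response genes were called lower and 1 higher, with a median of -0.13, and 5 of the 23 called in A498 parental cells were among the lower genes. In 786-O resistant cells 2 of 74 were called higher and 0 lower, with a median of 0.02. Over all genes, 286 of 17577 were called lower and 477 higher in 786-O parental cells. In 786-O resistant cells 69 of 18886 were called lower and 159 higher. GBP1 had log2 changes of -0.45 in 786-O parental cells (adjusted p = 7.9e-05), -0.13 in 786-O resistant cells and 0.04 in the libraries labelled A498 resistant. The difference between the parental lines was 0.16 ± 0.0726 for GBP1 (adjusted p = 0.356). Of 43 ATF4 targets in 786-O parental cells 2 were called higher, against 477 of all 17577 genes, with a median of 0.08. SLC38A2 had 0.29 there (adjusted p = 0.0784), and the test of the difference between the lines gave 0.04 ± 0.0846 (adjusted p = 0.909).

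**Figure D5:**
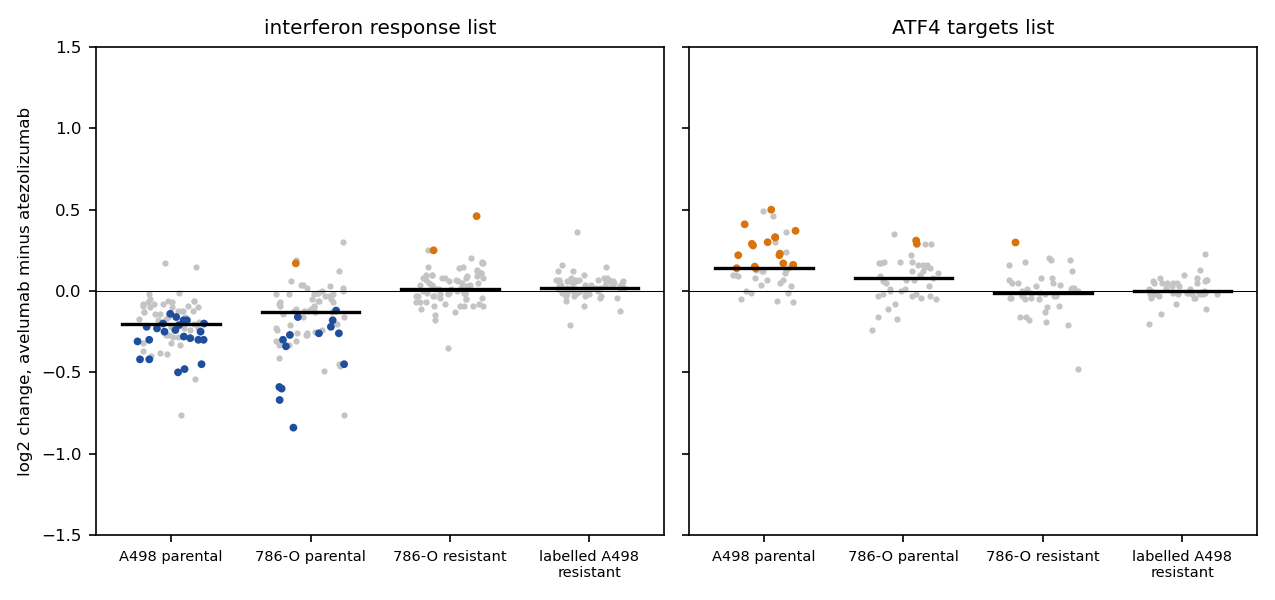
Log2 change, avelumab minus atezolizumab, of each tested interferon response gene (left) and ATF4 target (right) in the 4 cell states, with the median as a black bar; blue points were called lower, orange higher and grey not called. The interferon response median is -0.20 in A498 parental and -0.13 in 786-O parental cells and close to 0 in the resistant states.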

How the data were processed

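Gene expression was measured by RNA-seq of polyadenylated RNA with a stranded kit, per the labels' protocols. The values deposited by the authors are raw read counts for each gene. The submitters' processing notes name HISAT2 2.1.0 and featureCounts 1.6.3 (GRCh38), after bcl2fastq 2.19.0 and Trimmomatic 0.36.6. For the strand setting and the annotation release the sources used here give nothing. Genes whose exons overlap a neighbour over 10% or more are therefore named as uncertain. Coordinates are from GENCODE on GRCh38.

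Counts of the 9 libraries were tested in R 4.3.3 with edgeR 4.0.16: filterByExpr (count minimum 10, total minimum 15), TMM scaling, robust quasi-likelihood and Benjamini-Hochberg adjustment over all tested genes, threshold 0.05. Errors of log2 changes are SE. CPM used raw totals. Intervals cover counting error only, since reads carried no molecular identifiers. Alternatives covered scaling, DESeq2 1.42.0, filters, mitochondrial counts, the replicate block and each library left out.

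Named genes were the 12 highest and 12 lowest called changes and the 6 lowest p in each direction (at least 5 CPM, no overlap), up to 6 members of each of 43 lists (at least 1 CPM), the mitochondrial protein genes and CD274. The comparison, members and lists were chosen with earlier results of these data known.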

Additional observations from a re-analysis of the deposited data

Results flagged for a closer look

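The avelumab minus atezolizumab change differed between A498 parental and 786-O parental cells for 269 of 19703 genes (1.37%, edgeR interaction test), of which 89 lay above and 180 below in A498 parental cells. Of the 623 genes called in A498 parental cells, 86 were among them. Line and batch label coincide here and cannot be told apart. Among the genes of the naming rule and the interferon and ATF4 lists the difference passed for 29, of which 22 were called in A498 parental cells and are given here. ID3 differed by -0.97 ± 0.165 (adjusted p = 0.0138), with log2 changes of -0.72 in A498 parental and 0.26 in 786-O parental cells. C1QL4 differed by -0.86 (-0.50 against 0.36), IGFBP3 by -0.50 (-0.29 against 0.22) and PLAT by 0.96 (0.49 against -0.47). None of these 4 genes was called in 786-O parental cells. HSPA1B (-0.29 against 0.22) and GSR, glutathione reductase (-0.16 against 0.14), were called in opposite directions in the parental lines. HSPA1B differed by -0.50 (adjusted p = 0.000744), though its counts cannot be separated with certainty from those of HSPA1A, and GSR by -0.30 (adjusted p = 0.00149). The A498 parental call of GSR ended without atezolizumab replicate 3 (edgeR adjusted p = 0.101) or avelumab replicate 2 (0.11). That of HSPA1B ended without avelumab replicate 2 (0.0699). ADAMTS9 differed by -0.40, STC2 by 0.38 and CCDC9B by 0.31, and their changes in 786-O parental cells were -0.06, -0.08 and -0.03. The processed pseudogenes RPL13AP25 and RPL13P12 differed by -0.95 and -0.64, and as near copies of ribosomal protein genes their values are uncertain. The RPL13AP25 call ended without atezolizumab replicate 1 (edgeR adjusted p = 0.0704) or 2 (0.0533) or avelumab replicate 2 (0.0525).

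Of the other genes called in A498 parental cells, SRXN1, which reduces oxidised peroxiredoxins, differed by -1.37 (-0.70 against 0.67), FGFR3 by -1.16 (-0.79 against 0.37) and CSF2 by 1.03 (0.36 against -0.66). CDH6 differed by -0.42 (-0.23 against 0.20), HSPE1 by -0.36 (-0.24 against 0.13) and SKIL, a repressor of SMAD signalling, by 0.33 (0.20 against -0.13). The ATP synthase genes ATP5F1C and ATP5MF differed by -0.20 and -0.29, IFITM3 by -0.22, SRSF2 by -0.18 and PLK2 by 0.21. Without atezolizumab replicate 3 the A498 parental calls of SKIL and PLK2 ended (edgeR adjusted p = 0.0842 and 0.153). They also ended without avelumab replicate 2 (0.131 and 0.0947), and that of PLK2 ended in 5 of the 9 fits without 1 library.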

How the results depend on the processing

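In the alternatives run no result reversed, and the cause of the moved counts was not tested. The smallest called change was 0.12 on the log2 scale at the depth of these libraries. Scaling and a strict filter left 592 to 629 genes called. DESeq2 called 419 genes, the fit of 6 libraries alone 430 and the fit without a filter 850, with 42 interferon response genes lower. With the mitochondrial share as a covariate 49 genes were called, 27 higher and 22 lower, with 4 interferon response genes lower and 8 ATF4 targets higher. Leaving out 1 library at a time gave 141 to 759 genes called, 73 to 399 higher and 68 to 360 lower, 11 to 39 interferon response genes lower and 7 to 20 ATF4 targets higher. The difference in mitochondrial share was then 0.192 to 0.281 percentage points. The difference between the lines was called for 113 to 384 genes. Of 120 called genes followed across the settings, 42 were called in every fit without 1 library.

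With the replicate block 470 genes were called for avelumab against atezolizumab and 136 for the difference between the lines. For the mitochondrial share the block leaves 0.231 with an exact p of 0.25, the smallest 3 pairs allow. Deviations of same-numbered libraries correlated at -0.0633 to 0.0479, and 2 of 9 libraries correlated best with their own number, so the numbers were not taken to pair the libraries.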

Other observations

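All 18 called genes with a change of at least 2-fold averaged below 5 CPM in both groups. Only some of them are named here, and these were picked after their values were seen. VTN, the gene of the adhesion protein vitronectin, was at 0.633, 0.868 and 0.792 CPM under atezolizumab and at 0.197, 0.285 and 0.268 under avelumab (log2 change -1.64 ± 0.345, edgeR adjusted p = 0.0059). C4B, a complement factor and near copy of C4A, was at 0.739, 0.568 and 0.763 against 0.197, 0.114 and 0.229 CPM (-1.95 ± 0.374, adjusted p = 0.003). RN7SL1, an RNA of the signal recognition particle that has no long poly(A) tail and has many near copies, was at 1.83, 1.24 and 1.97 against 2.68, 4.19 and 5.12 CPM (1.20, adjusted p = 0.0348). EPCAM, an epithelial adhesion molecule, was at 0.281, 0.267 and 0.381 against 0.714, 0.684 and 0.612 CPM (1.09, adjusted p = 0.0487).

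Processed pseudogenes, intronless copies of other genes, were called lower in 14 cases, higher in 0 and not called in 637. The shares of all tested genes called lower and higher were 1.68% and 1.71%. Called lower genes had a median exonic length of 3669 bases and called higher genes of 5155, against 4093 for all tested genes. Of the 3627 genes with the shortest exons 37 were called higher and 62 lower, and of the 3626 with the longest 71 and 37. Among all tested genes 1.71% were called higher and 1.68% lower. The median GC content was 54.5% for lower genes, 51.5% for higher genes and 48.6% for all.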
